A study of Brachypodium distachyon with 6 samples.

Results

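The 100 transcripts described here are those expressed in untreated roots of the grass Brachypodium distachyon whose counts stood highest above that level in roots treated with 2,4-dichlorophenoxyacetic acid (2,4-D). They were taken from 42868 transcripts of a deposited count table. CPM is the fragment count of a transcript divided by the library's total count, times 1000000. A transcript was eligible if its highest untreated CPM was at least 0.3 and its lowest 2,4-D CPM was at least 2, which held for 15545 transcripts. These were ranked by the lowest 2,4-D CPM over the highest untreated CPM, and the first 100 were taken. Positions are counted from 1 on the assembly of annotation version 2.1, as the table gives them. The members were thus selected on their CPM in all 6 libraries. Their height in 2,4-D roots is a description and not a finding, and no test of it is given as support.

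All plants were of line Bd21, the inbred standard line of this model species for cereal grasses. The 2,4-D group was 3 libraries from roots of whole plants that were soaked for 1 h in 50 µM 2,4-D and carried nodule-like structures when RNA was taken 7 days later. The untreated group was 3 libraries from roots of plants of the same line at the same time. Plants of both groups were 7 days on medium low in nitrogen when the treatment was given, and remained on such medium afterwards. The labels do not say if the untreated group had a mock soak, how many plants made up a replicate, or whether the structures were dissected from the rest of the root. The 3 replicates of each group are biological replicates, per the series' design text.

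2,4-D is a synthetic auxin that plants break down slowly, unlike the natural hormone indole-3-acetic acid. Auxin brings its F-box receptors together with repressor proteins of the Aux/IAA family, which are then degraded, so that auxin response factors can switch on their target genes. In roots auxin promotes the start of lateral roots, and at high dose it slows elongation of the primary root.

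The table carries transcript identifiers without gene names or products. None of them matched the reference gene table (0 identifiers), so members are described by level, spread, structure and position, and no function is attached to any of them. For the same reason the labelled tissue could not be checked against root or shoot marker genes. Library totals ranged from 12528548 to 14146109 counts, and 1 count was thus worth less than 0.1 CPM in each library. The floor of 3 counts was 0.212 to 0.239 CPM, depending on the library.

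The 100 members together held 0.894%, 0.731% and 0.953% of all counts in 2,4-D replicates 1, 2 and 3, against 0.056%, 0.0486% and 0.0752% in untreated replicates 1, 2 and 3. The means were 0.859% ± 0.115 in 2,4-D roots and 0.0599% ± 0.0138 in untreated roots (SD, n = 3 each). In these bulk samples more cells of a type and more RNA per cell cannot be told apart. The ratio of the lowest 2,4-D value to the highest untreated value was over 20 in 2 members, over 10 and up to 20 in 15, over 5 and up to 10 in 66, and 5 or less in 17. Its median was 6.37 in the members and 0.711 over the eligible transcripts. The ratio of group means ran from 5.85 to 89.5 in the members, with a median of 12.2.

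Bradi2g41840.1 had 158, 98.3 and 181 CPM in 2,4-D roots, against 2.23, 1.63 and 1.70 CPM in untreated roots. This transcript (chromosome 2, 42259713 to 42261718, plus strand, 3 exons) had the highest ratio by the rule, 44.0, and its untreated values lay close together. Its mean was 146 CPM ± 42.6 in 2,4-D roots and 1.85 CPM ± 0.333 in untreated roots (SD, n = 3 each), a ratio of means of 78.6. Bradi1g30950.1 had 43.5, 35.7 and 79.9 CPM in 2,4-D roots, against 0.0798, 0.353 and 1.34 CPM in untreated roots. Relative to their mean, its untreated libraries spread more than its 2,4-D libraries (SD over mean 112% against 44.5%). In the lowest untreated library it rested on 1 count. It lies on chromosome 1, 26507712 to 26509991, minus strand, 3 exons, and its ratio by the rule was 26.6. Bradi1g37410.1 had 29.3, 19.9 and 98.3 CPM in 2,4-D roots, against 1.04, 0.353 and 0.283 CPM in untreated roots. In this member 2,4-D replicate 3 was far above the other 2,4-D libraries, and untreated replicate 1 above the other untreated ones. The ratio by the rule was 19.2 and that of the means 88.2 (chromosome 1, 33401700 to 33402729, minus strand, 2 exons).

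Bradi1g68170.1 had 11.02, 9.12 and 8.67 CPM in 2,4-D roots, against 0.319, 0.495 and 0.354 CPM in untreated roots. Both groups were tight at a low level (chromosome 1, 66961988 to 66963648, plus strand, 2 exons). Bradi3g09520.3 had 50.8, 36.1 and 31.0 CPM in 2,4-D roots, against 1.12, 1.41 and 1.98 CPM in untreated roots. This is one of 2 members whose locus has another transcript in the table, and the other transcript, Bradi3g09520.2, had 0 counts in all 6 libraries (chromosome 3, 7636201 to 7638435, plus strand, 4 exons). Of its 1929 exonic bases, 1446 are shared with that transcript and 483 are not, and the counting had no option to keep fragments in the shared part for both. Bradi3g02310.1 had 98.3, 83.0 and 99.95 CPM in 2,4-D roots, against 5.83, 3.11 and 5.66 CPM in untreated roots. Bradi3g58630.1 had 213, 194 and 288 CPM in 2,4-D roots, against 5.75, 10.1 and 13.7 CPM in untreated roots. Both are transcripts with 1 exon on chromosome 3, and each has another member next to it (given below).

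Bradi1g07511.1 had 38.5, 21.6 and 28.8 CPM in 2,4-D roots, against 0.718, 1.48 and 1.56 CPM in untreated roots. The highest 2,4-D value was in replicate 1 (chromosome 1, 5255033 to 5261039, minus strand, 6 exons). Bradi4g14620.1 had 112, 58.9 and 103.4 CPM in 2,4-D roots, against 1.60, 1.63 and 4.46 CPM in untreated roots. Of the 2,4-D libraries, replicate 2 was the low one (chromosome 4, 15196936 to 15197630, minus strand, 1 exon). Bradi5g11310.1 had 82.7, 46.1 and 73.3 CPM in 2,4-D roots, against 3.67, 1.70 and 3.18 CPM in untreated roots. It showed the same order of 2,4-D libraries, with replicate 2 lowest (chromosome 5, 14956185 to 14958076, plus strand, 4 exons). Bradi4g14920.1 had 22.6, 25.1 and 99.6 CPM in 2,4-D roots, against 1.12, 1.91 and 0.354 CPM in untreated roots. Replicate 3 was far above the other 2,4-D libraries (chromosome 4, 15584225 to 15584941, minus strand, 1 exon). Bradi1g15610.1 had 102.6, 70.9 and 57.5 CPM in 2,4-D roots, against 5.03, 4.59 and 2.19 CPM in untreated roots. With 10 exons it had one of the most divided structures among the members (chromosome 1, 12528382 to 12534065, minus strand, 10 exons).

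**Figure D1:**
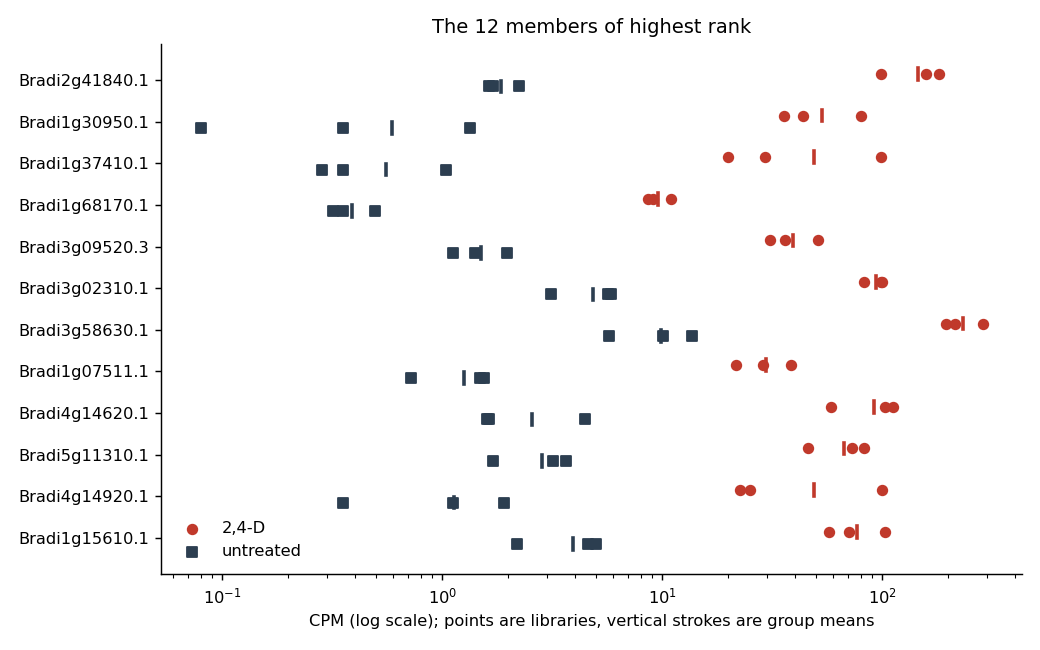
CPM on a log scale of the 12 members of highest rank, with 1 point per library (circles 2,4-D, squares untreated, n = 3 each) and a stroke at each group mean. The widest 2,4-D spreads among them are those of Bradi1g37410.1 (19.9 to 98.3 CPM) and Bradi4g14920.1 (22.6 to 99.6 CPM), and the groups are apart by construction.

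In 2,4-D roots the members were spread over levels much as the eligible transcripts were. Their mean 2,4-D level ran from 2.61 to 1566 CPM with a median of 27.4 CPM, against a median of 23.4 CPM over the eligible transcripts. A mean of under 10 CPM was found in 28 members, 10 to 100 CPM in 55 and over 100 CPM in 17. Over the eligible transcripts these classes made up 27.8%, 56.8% and 15.4%. In untreated roots the members had a median of 1.89 CPM, against 20.1 CPM over the eligible transcripts, as the rule selects for low untreated values. The highest untreated value stayed under 1 CPM in 24 members and under 10 CPM in 82.

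**Figure D2:**
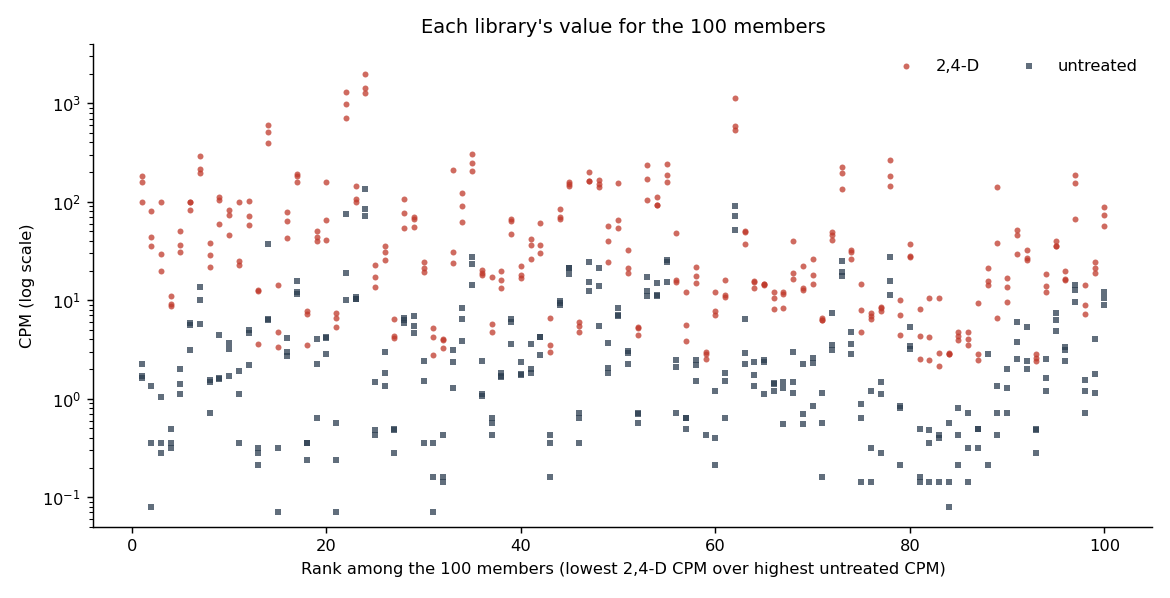
CPM on a log scale of every library (circles 2,4-D, squares untreated, n = 3 each) for the 100 members in rank order, with values of 0 left out. Levels were higher among the first 50 ranks, with a median 2,4-D mean of 51.1 CPM, than among ranks 51 to 100, with 15.5 CPM.

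A few transcripts made up much of the total. The 3 with the highest 2,4-D mean held 38.6% of the members' summed 2,4-D CPM, and the 10 highest held 58.9%. Bradi2g18920.1 had 1998.7, 1437 and 1262 CPM in 2,4-D roots, against 83.7, 70.8 and 135 CPM in untreated roots. It took the most counts of all members in both groups (chromosome 2, 16682447 to 16683691, minus strand, 2 exons), with a mean of 1566 CPM ± 385 in 2,4-D roots and 96.6 CPM ± 34.1 in untreated roots (SD, n = 3 each). Bradi2g37060.1 had 980.3, 703 and 1315 CPM in 2,4-D roots, against 9.98, 19.0 and 74.3 CPM in untreated roots. The untreated value of replicate 3 was several times those of replicates 1 and 2, so the ratio by the rule was 9.47 while the ratio of means was 29.0 (chromosome 2, 37472679 to 37474143, minus strand, 2 exons). Bradi2g39480.1 had 591, 532 and 1142 CPM in 2,4-D roots, against 72.0, 51.3 and 91.1 CPM in untreated roots. Its 2,4-D replicate 3 was well above the other two (chromosome 2, 39551243 to 39552768, minus strand, 2 exons). Bradi1g22830.1 had 396, 508 and 599.7 CPM in 2,4-D roots, against 6.47, 6.36 and 37.4 CPM in untreated roots. Like Bradi2g37060.1 it had a much higher value in untreated replicate 3 than in the other untreated libraries (chromosome 1, 18352210 to 18354583, plus strand, 2 exons).

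Per kilobase of exon, Bradi2g18920.1 had 1407 CPM per kb in 2,4-D roots and 86.8 CPM per kb in untreated roots. The next levels per length were those of Bradi2g37060.1, with 734 CPM per kb in 2,4-D roots and 25.3 CPM per kb in untreated roots, and of Bradi2g39480.1, with 540.0 CPM per kb in 2,4-D roots and 51.1 CPM per kb in untreated roots. Bradi2g08690.1, a transcript with 1 exon and 423 exonic bases, followed with 466 CPM per kb in 2,4-D roots and 43.1 CPM per kb in untreated roots. These 4 all lie on chromosome 2, and Bradi2g08690.1 was named after its value per length was seen. The members' median was 18.3 CPM per kb in 2,4-D roots and 1.34 CPM per kb in untreated roots, against 14.6 and 12.6 CPM per kb over the eligible transcripts.

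At the low end, untreated levels rested on few counts. In 29 members the 3 untreated libraries together held fewer than 30 counts, and in 3 members an untreated library had 0 counts. Bradi3g39622.1 had 45, 65 and 187 counts in 2,4-D replicates 1, 2 and 3, against 4, 0 and 1 counts in untreated replicates 1, 2 and 3. The ratio of its summed counts, scaled by library totals, was 60.3 (exact 95% counting interval 25.6 to 187). Bradi1g17611.1 had 38, 35 and 39 counts in 2,4-D replicates 1, 2 and 3, against 0, 0 and 6 counts in untreated replicates 1, 2 and 3, a ratio of 19.0 (exact 95% counting interval 8.44 to 52.8). Its 2,4-D counts were nearly equal, and all its untreated counts came from replicate 3. These intervals cover counting error only. Both were named for their few counts after the values were seen.

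The members did not spread alike over the 2,4-D libraries. The coefficient of variation (SD over mean) of the 3 2,4-D values ran from 1.64% to 119.8%, with a median of 22.9%, against 20.1% over the eligible transcripts. In the untreated libraries the median was 38.7%, against 23.9% over the eligible transcripts. The members' untreated levels were lower by the rule, and no background of like untreated level was made. For members with a 2,4-D mean under 10, 10 to 100 and over 100 CPM, the untreated medians were 59.6%, 38.5% and 27.8%. The highest 2,4-D value was at least 2 times the lowest in 26 members and less than 1.25 times the lowest in 22. Members with a 2,4-D mean of under 10 CPM had a median coefficient of variation of 27.8%, those of 10 to 100 CPM 22.9%, and those over 100 CPM 21.9%. For eligible transcripts the medians in these classes were 23.9%, 19.5% and 15.2%. By structure, the members' medians were 24.8% with 1 exon, 22.9% with 2 or 3 and 21.6% with 4 or more. Over the eligible transcripts the medians by structure were wider apart, with 31.0% for 1 exon, 23.7% for 2 or 3, 18.5% for 4 to 9 and 13.6% for 10 or more.

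Bradi3g58620.1 had 31.0, 23.7 and 212 CPM in 2,4-D roots, against 3.11, 1.27 and 2.33 CPM in untreated roots. This was the widest spread among members, with 2,4-D replicate 3 far above the other two. Its coefficient of variation was 119.8% (chromosome 3, 58137884 to 58139077, minus strand, 1 exon). Bradi3g43870.1 had 38.3, 6.59 and 142 CPM in 2,4-D roots, against 0.718, 0.424 and 1.34 CPM in untreated roots. This transcript had the lowest value in 2,4-D replicate 2 and the highest in replicate 3, a 21.5-fold range within the group, and its ratio of means (75.1) was far above its ratio by the rule (4.90; chromosome 3, 45597733 to 45598839, minus strand, 2 exons). Bradi3g31690.1 had 2.92, 2.17 and 10.4 CPM in 2,4-D roots, against 0.399, 0.141 and 0.424 CPM in untreated roots. It repeated the pattern at a low level, with 2,4-D replicate 3 several times the other 2 (chromosome 3, 34001128 to 34003404, minus strand, 1 exon). Bradi4g14920.1, given above, completed the 4 widest with a coefficient of variation of 89.1%.

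Bradi3g51270.1 had 2.85, 2.82 and 2.91 CPM in 2,4-D roots, against 0.0798, 0.141 and 0.566 CPM in untreated roots. These were the tightest 2,4-D values among members. The 2,4-D values differed by less than the worth of 2 counts, while untreated replicate 3 stood above the other untreated libraries (chromosome 3, 52417950 to 52421187, plus strand, 3 exons). An exon of a transcript on the opposite strand overlaps 101 of its 1041 exonic bases. Bradi2g62490.1 had 14.2, 14.6 and 14.7 CPM in 2,4-D roots, against 1.12, 2.47 and 2.33 CPM in untreated roots. The 2,4-D coefficient of variation was 2.03% (chromosome 2, 59147452 to 59149675, minus strand, 2 exons). Bradi3g47980.2 had 6.52, 6.23 and 6.29 CPM in 2,4-D roots, against 0.160, 1.13 and 0.566 CPM in untreated roots. Bradi2g07460.2 had 7.80, 8.47 and 8.36 CPM in 2,4-D roots, against 1.12, 0.283 and 1.49 CPM in untreated roots. In both of these the untreated libraries again spread more than the 2,4-D libraries, with the lowest untreated value in replicate 1 for Bradi3g47980.2 and in replicate 2 for Bradi2g07460.2. Bradi3g51270.1, Bradi2g62490.1, Bradi3g47980.2 and Bradi2g07460.2 rested on 115, 583, 255 and 330 counts in the 2,4-D libraries together. Counting error alone would spread such counts more widely, so the closeness of their values is not read as steady expression.

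2,4-D replicate 2 was seldom the highest library. The highest 2,4-D value was in replicate 1 for 44 members, in replicate 2 for 7 and in replicate 3 for 49. Over the eligible transcripts these shares were 35.4%, 30.5% and 34.1%. The lowest 2,4-D value was in replicate 2 for 55 members, against 27.4% of eligible transcripts. Replicate 1 was above replicate 2 in 81 members, by a median factor of 1.21, against 54.1% and a factor of 1.02 over the eligible transcripts. In 14 members the highest 2,4-D value was at least 2 times the next, and in all 14 it was that of replicate 3. Among the untreated libraries replicate 3 was highest for 58 members, replicate 1 for 29 and replicate 2 for 13. Of 12 members whose highest untreated value was at least 3 times the next, 10 had it in replicate 3 and 2 in replicate 1. These counts were not tested, since the rule uses the lowest 2,4-D and highest untreated values.

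**Figure D3:**
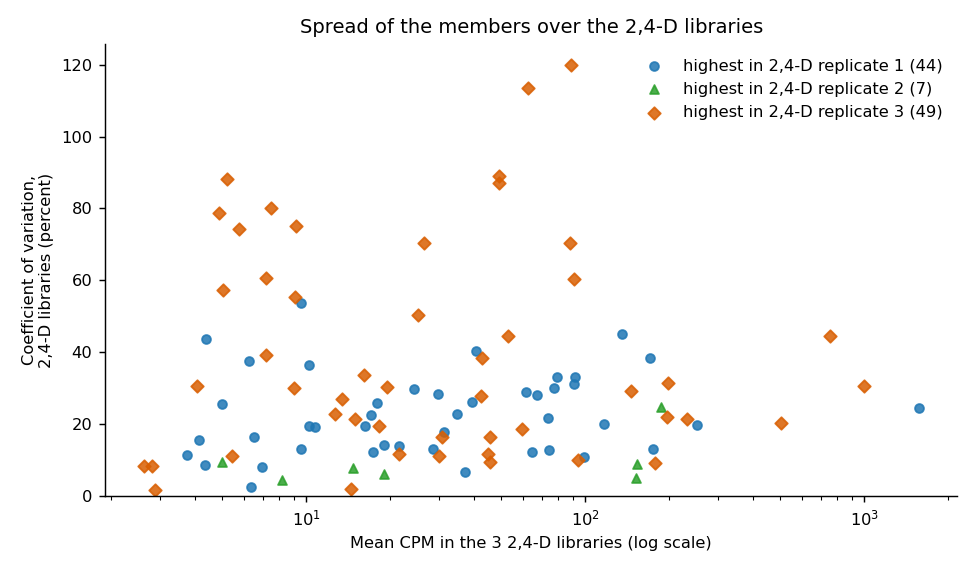
Coefficient of variation over the 3 2,4-D libraries, in percent, against the mean 2,4-D CPM on a log scale, 1 point per member, with colour and shape for the 2,4-D library that held the highest value. Points above 60% are all of members highest in replicate 3, and members highest in replicate 2 (7) lie at 24.9% or below.

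Members had fewer exons and shorter introns than the eligible transcripts, features the rule did not use directly. Of the 100, 32 had 1 exon, 24 had 2, 17 had 3, 24 had 4 to 9 and 3 had 10 or more. The median was 2 exons, against 4 over the eligible transcripts, and 73.0% had 1 to 3 exons (95% Clopper-Pearson interval 63.2% to 81.4%), against 44.9% over the eligible transcripts. The interval takes members as independent and does not cover the spread between plants. Read the other way, members were 1.46% of the 2199 eligible transcripts with 1 exon, 0.859% of the 4773 with 2 or 3, 0.409% of the 5871 with 4 to 9 and 0.111% of the 2702 with 10 or more. Among the first 50 members 37 had 1 to 3 exons, and among the second 50 there were 36. Over the eligible transcripts the median log2 ratio of means fell with exon number, from 0.52 with 1 exon to 0.03 with 10 or more. The eligibility limits themselves favour high ratios at low levels. A transcript with all untreated values under 2 CPM was eligible only if its 2,4-D values were higher. Transcripts with 1 to 3 exons were more frequent among eligible transcripts of low 2,4-D level (given below). The part of the limits in this trend was not tested, so it cannot show that the exon pattern extends beyond the members.

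The excess of few-exon members held at each level of 2,4-D expression per length. Of 15 members above 100 CPM per kb, 86.7% had 1 to 3 exons, against 41.4% of the 1135 eligible transcripts at that level. The median exon length in this class was 996 bp, against 1311 bp. At 10 to 100 CPM per kb, 69.6% of 56 members had 1 to 3 exons, against 41.0% of 8397 eligible transcripts. Under 10 CPM per kb it was 72.4% of 29 members, against 50.9% of 6013. With classes by CPM without regard to length, the gap was wider at the top, with 82.4% of the 17 members over 100 CPM against 26.9% of 2393 eligible transcripts. Under 10 CPM it was 75.0% of 28 members against 58.1% of 4325. All these classes are by 2,4-D level. No background was matched on untreated level, for which the rule selects low values, and its part in the exon pattern was not tested.

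The summed exon length of the members ran from 360 to 3222 bp with a median of 1355 bp, against a median of 1703 bp over the eligible transcripts. It was under 1000 bp in 28 members and 16.4% of eligible transcripts, and 2000 bp or more in 15 members and 36.6% of eligible transcripts. Members were also shorter within exon classes. Those with 1 exon had a median of 1085 bp, against 1240 bp over eligible transcripts with 1 exon. With 2 or 3 exons the medians were 1362 bp and 1456 bp, and with 4 or more exons 1560 bp and 1949 bp. The last class was not alike in exon number. In it 24 members had 4 to 9 exons and 3 had 10 or more, against 5871 and 2702 eligible transcripts. The 68 members with introns had a median of 590.0 bp of intron in all and 221 bp per intron, against 1724 bp and 357 bp over the 13346 eligible transcripts with introns.

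**Figure D4:**
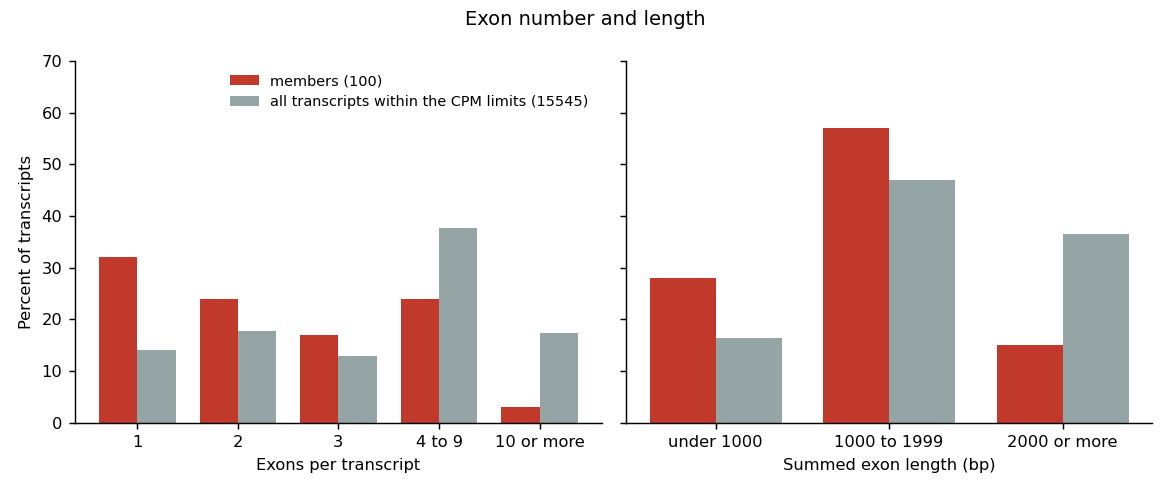
Percent of transcripts by number of exons (left) and by summed exon length in bp (right), for the 100 members (red) beside the 15545 eligible transcripts (grey). Transcripts with 1 exon make up 32.0% of members and 14.1% of eligible transcripts, and those of 2000 bp or more 15.0% and 36.6%.

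Exon number went with the library in which a member was highest. 2,4-D replicate 3 was the highest 2,4-D library for 65.6% of members with 1 exon, 46.3% of those with 2 or 3 and 33.3% of those with 4 or more. The same order held over the eligible transcripts, with 52.8%, 36.1% and 28.2%. The part of this library in the exon pattern was not tested. With the 100 chosen anew without 2,4-D replicate 3, 72.0% had 1 to 3 exons and the median was 2. That list shared 72 members with the first one, so its likeness cannot show the part of this library.

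The exceptions with many exons were few. Bradi1g29700.2 had 14.1, 12.2 and 18.4 CPM in 2,4-D roots, against 2.55, 1.63 and 1.20 CPM in untreated roots. With 13 exons in 1351 bp it was the most divided member (chromosome 1, 25281925 to 25284999, plus strand, 13 exons). Bradi4g29880.2 had 4.20, 2.75 and 5.22 CPM in 2,4-D roots, against 0.160, 0.353 and 0.0707 CPM in untreated roots. It rested on 2, 5 and 1 counts in untreated replicates 1, 2 and 3 (chromosome 4, 35624133 to 35628844, minus strand, 10 exons). The third, Bradi1g15610.1, is given above. The longest members were Bradi3g35330.1 (3222 bp), Bradi2g55297.1 (2982 bp) and Bradi1g15610.1 (2898 bp). Bradi3g35330.1 had 5.17, 5.36 and 4.45 CPM in 2,4-D roots, against 0.718, 0.707 and 0.566 CPM in untreated roots. Its values varied little in either group. Bradi2g55297.1 had 2.85, 2.46 and 9.28 CPM in 2,4-D roots, against 0.319, 0.495 and 0.495 CPM in untreated roots. Here 2,4-D replicate 3 was again the high library.

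Nearly all members were well separated in the counting. In 98 of the 100 the locus has 1 transcript in the table, against 90.1% of eligible transcripts, and in 95 no exonic base is shared with any other transcript, against 85.1%. Of 9 members whose identifier ends in a number above 1, 8 are the only transcript of their locus in the table. Exons of opposite-strand transcripts overlap 2 members, Bradi3g51270.1 and Bradi1g72630.1, the second over 20 bases. The counting used no strand option, so fragments from those bases cannot be assigned to either strand. Bradi1g09600.1 shares 245 of its 913 exonic bases with another locus on the same strand. Besides Bradi3g09520.3, Bradi1g31337.1 is the only member with another transcript in its locus, which also had 0 counts in all 6 libraries. It has 496 unshared exonic bases of 1646.

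The members lay on all 5 chromosomes. Chromosome 1 carried 35, chromosome 2 carried 17, chromosome 3 carried 23, chromosome 4 carried 17 and chromosome 5 carried 8. Relative to eligible transcripts these were 0.767%, 0.476%, 0.655%, 0.695% and 0.554%. With each chromosome measured to its last annotated base, 53.0% of members and 49.9% of eligible transcripts lay in the outer 20% at either end. On chromosome 3, 12 of 23 members lay in the last 20% of its length, which held 27.4% of the chromosome's eligible transcripts. On chromosome 5 none of the 8 lay in the first 40%, which held 22.4%. Plus-strand transcripts made up 48.0% of members and 52.1% of eligible transcripts. The chromosome parts were looked at after the positions were seen and were not tested.

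Some members were direct neighbours. In 5 pairs, with 10 members, no other locus of the table lay between the pair, and in 3 pairs both were on the same strand. On chromosome 2, Bradi2g18910.1 lies 1986 bp from Bradi2g18920.1, the member with the most counts, on the same strand and also with 2 exons. Bradi2g18910.1 had 302, 247 and 204 CPM in 2,4-D roots, against 27.4, 14.1 and 23.6 CPM in untreated roots. Both had their 2,4-D values in the order replicate 1, 2 and 3, and both had their lowest untreated value in replicate 2. On chromosome 3, Bradi3g02300.1 lies 4153 bp from Bradi3g02310.1 on the same strand. Bradi3g02300.1 had 184, 159 and 189.6 CPM in 2,4-D roots, against 15.8, 12.2 and 11.7 CPM in untreated roots. In both of that pair the 2,4-D values spread little, with coefficients of variation of 9.18% and 9.95%, although one has 6 exons and the other 1.

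On chromosome 1, Bradi1g15600.1 lies 5878 bp from Bradi1g15610.1 on the same strand. Bradi1g15600.1 had 188, 158 and 243 CPM in 2,4-D roots, against 24.3, 15.3 and 25.7 CPM in untreated roots. Its structure differs from that of its neighbour, with 2 exons against 10, and its highest 2,4-D library was replicate 3, where its neighbour was lowest. The pair of Bradi1g71460.1 and Bradi1g71465.1, 4633 bp apart on opposite strands, was at a low level. Bradi1g71460.1 had 13.6, 9.70 and 17.0 CPM in 2,4-D roots, against 0.718, 1.27 and 1.98 CPM in untreated roots. Bradi1g71465.1 had 6.52, 3.55 and 2.99 CPM in 2,4-D roots, against 0.160, 0.424 and 0.354 CPM in untreated roots. The highest 2,4-D library differed between these also, replicate 3 in the first and replicate 1 in the second.

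The densest group was on chromosome 3 between 58137884 and 58153377, where 3 of 4 neighbouring loci were members and all 4 had 1 exon and 1114 to 1260 bp. Bradi3g58620.1 is on the minus strand and the others on the plus strand. Bradi3g58650.1 had 65.1, 53.8 and 154 CPM in 2,4-D roots, against 7.02, 6.93 and 8.28 CPM in untreated roots. Bradi3g58640.1 had 74.0, 50.1 and 199 CPM in 2,4-D roots, against 37.8, 22.1 and 13.7 CPM in untreated roots. The last is not a member (rank 1253), and its untreated level was the highest of the 4. Its groups also did not overlap, as in 16.8% of tested transcripts with 2,4-D higher, and its adjusted p was 0.152 (edgeR quasi-likelihood test). All 4 had their highest 2,4-D value in replicate 3. In Bradi3g58630.1, with 213, 194 and 288 CPM, that library stood out least.

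**Figure D5:**
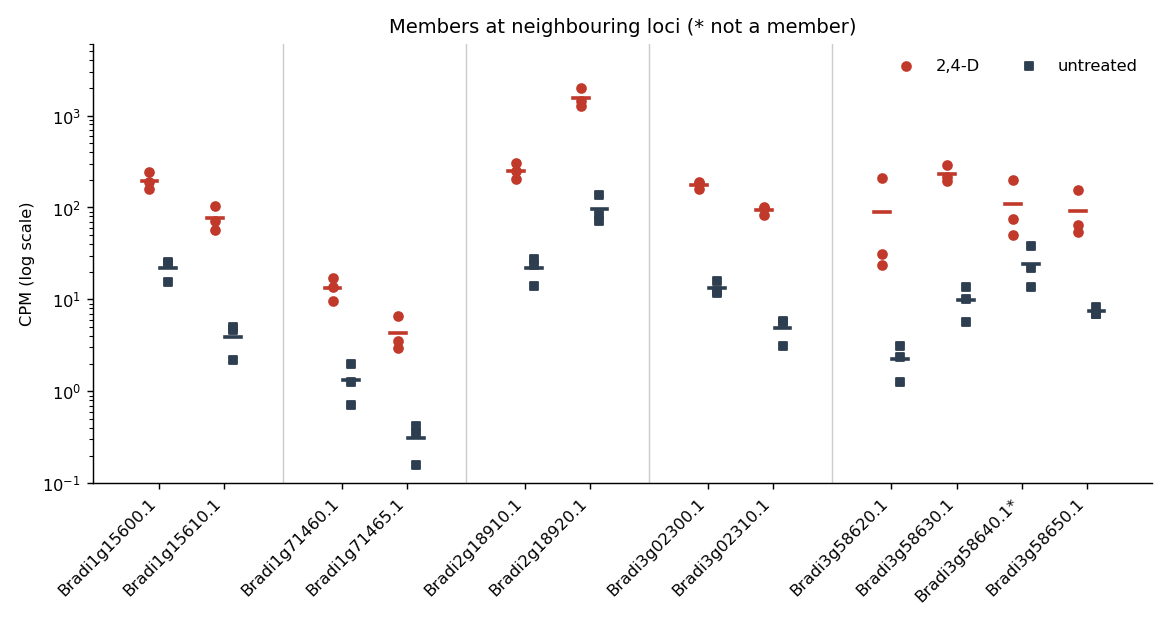
CPM on a log scale at the loci of the 5 pairs of neighbouring members, with 1 point per library (circles 2,4-D, squares untreated, n = 3 each) and a stroke at each group mean. Vertical lines part the regions, and an asterisk marks Bradi3g58640.1, which is not a member (mean 108 CPM in 2,4-D roots and 24.5 CPM in untreated roots).

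Next to the members lay 188 loci that were not members themselves, each represented by its transcript with the most 2,4-D counts. Of these, 97 were eligible, and 19 of the 97 (19.6%) had a 2,4-D mean more than 2 times the untreated mean, against 13.5% of all eligible transcripts. Their median log2 ratio of means was 0.27, against 0.12 over all eligible transcripts. Of the 91 that were not eligible, 28 had no count in any library, and 26 (28.6%) had a 2,4-D mean more than 2 times the untreated mean, against 15.0% of all transcripts that were not eligible. The backgrounds in this paragraph take every transcript, without choosing per locus, so the sets compared were unlike. These shares were not tested, and most of the loci that were not eligible had few counts. Only 22 of the 91 had a 2,4-D mean of 1 CPM or more, and 11 of the 22 were among the 26, against 26.3% of all non-eligible transcripts at that level.

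Several of these low-level neighbours had 2,4-D means far above their untreated means, on few counts. Bradi2g01927.1 had 0.975, 2.75 and 7.44 CPM in 2,4-D roots, against 0.160, 0 and 0.0707 CPM in untreated roots. It lies 1615 bp from the member Bradi2g01920.1. Bradi1g73070.1 had 0.450, 2.24 and 2.45 CPM in 2,4-D roots, against 0.160, 0 and 0.283 CPM in untreated roots. Its 2,4-D replicate 1 held 6 counts, against 4 in untreated replicate 3, so the groups were barely apart there. Bradi1g73090.1 had 1.65, 0.507 and 3.76 CPM in 2,4-D roots, against 0, 0.141 and 0.0707 CPM in untreated roots. These lie on either side of the member Bradi1g73080.1, on the same strand, and all have 1 exon. Bradi1g73080.1 had 4.20, 2.46 and 10.6 CPM in 2,4-D roots, against 0.479, 0.141 and 0.354 CPM in untreated roots. In these neighbours and in Bradi1g73080.1 replicate 3 was the highest 2,4-D library, and each untreated value of the neighbours rested on at most 4 counts. They were named after their values were seen.

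Bradi1g22830.1 and Bradi1g22863.1, both members, lie between 18352210 and 18370936 on chromosome 1 with 3 loci between them. Bradi1g22863.1 had 7.12, 7.82 and 12.1 CPM in 2,4-D roots, against 0.399, 0.212 and 1.20 CPM in untreated roots. Of the loci between, Bradi1g22840.1 had 73.9, 73.1 and 58.8 CPM in 2,4-D roots, against 53.8, 65.0 and 51.5 CPM in untreated roots. Bradi1g22850.1 had 125, 126 and 118 CPM in 2,4-D roots, against 128, 151 and 123 CPM in untreated roots. The groups overlapped at both of these loci. The third locus, Bradi1g22860.1, averaged 3.76 CPM ± 3.13 in 2,4-D roots and 1.66 CPM ± 0.402 in untreated roots (SD, n = 3 each). It was high in 2,4-D replicate 3 alone (7.36 CPM), the library that was also highest in Bradi1g22830.1 and Bradi1g22863.1.

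Further along chromosome 1, Bradi1g76200.1 and Bradi1g76217.1 have 1 locus between them. Bradi1g76200.1 had 12.7, 3.62 and 12.3 CPM in 2,4-D roots, against 0.319, 0.212 and 0.283 CPM in untreated roots. Bradi1g76217.1 had 19.0, 16.6 and 39.5 CPM in 2,4-D roots, against 2.95, 1.48 and 1.13 CPM in untreated roots. Replicate 2 was the lowest 2,4-D library in both, and in Bradi1g76200.1 it was far below the other two. The locus between, Bradi1g76207.2, had 1.42, 2.32 and 9.13 CPM in 2,4-D roots, against 2.31, 0.707 and 1.63 CPM in untreated roots. Its groups overlapped, and replicate 3 was again its highest 2,4-D library.

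At the limit of the list the values ran on without a step. Ranks 98 to 100, just inside, were Bradi5g14460.1, Bradi1g21555.1 and Bradi5g16170.1, with ratios of 4.683, 4.680 and 4.674. Bradi5g16170.1 had 88.9, 57.2 and 73.5 CPM in 2,4-D roots, against 10.5, 8.91 and 12.2 CPM in untreated roots. The next 3, just outside, were Bradi4g29852.1, Bradi2g19997.2 and Bradi2g53610.1, with ratios of 4.661, 4.660 and 4.645. Bradi4g29852.1 had 90.5, 78.3 and 65.3 CPM in 2,4-D roots, against 10.1, 10.9 and 14.01 CPM in untreated roots. These values lay close together in both groups.

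Which transcripts were members depended on single libraries. When the list was chosen anew with 1 library left out, 90, 74 and 72 of the 100 stayed when 2,4-D replicate 1, 2 or 3 was dropped. For untreated replicates 1, 2 and 3 it was 77, 88 and 59. In all 6 such lists 43 members were found, 39 of them from the first 50 ranks and including ranks 1 to 12. Bradi2g41840.1, Bradi2g18920.1, Bradi2g37060.1 and Bradi3g58630.1 were among these 43. The 43 had a median of 2 exons, and 31 had 1 to 3. The 57 that dropped out at least once had a median untreated coefficient of variation of 46.6%, against 35.3% in the 43. In the 2,4-D libraries the order was reversed, with 21.6% in the 57 and 25.7% in the 43. The untreated medians differed likewise by rank, with 35.7% for ranks 1 to 50 and 46.7% for ranks 51 to 100. With the ratio of group means in place of the lowest over the highest value, 51 members stayed, 82.0% of that list had 1 to 3 exons and its median 2,4-D coefficient of variation was 60.6%.

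In the comparison over all transcripts, 90 of the 100 members had an adjusted p under 0.05 and were higher in 2,4-D roots (edgeR quasi-likelihood test, Benjamini-Hochberg over 20061 transcripts), against a background of 1.48% of tested transcripts called higher. Since the rule chose the members on this contrast, nothing further is read from the count. Their fitted log2 fold change (2,4-D over untreated) had a median of 3.53, against 0.02 over all tested transcripts. All members had groups that did not overlap, by the rule, as had 16.8% of tested transcripts with 2,4-D higher. The 10 that were not called had adjusted p from 0.0506 to 0.156 in the edgeR test, a median 2,4-D coefficient of variation of 76.6% against 21.8% in the 90, and a median of 20 untreated counts in all against 84.5.

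The 10 were of more than one kind. Bradi3g58620.1 and Bradi3g43870.1 had wide 2,4-D spreads and adjusted p of 0.0601 and 0.0602 (edgeR). Bradi4g09750.1 had 21.4, 14.2 and 15.5 CPM in 2,4-D roots, against 2.87, 0.212 and 0 CPM in untreated roots. Its untreated libraries spread far more, relative to their mean, than its 2,4-D libraries, and its adjusted p was 0.156 (edgeR). Bradi1g17611.1 and Bradi3g46460.1, both with 2,4-D coefficients of variation under 10%, also were not called, at adjusted p of 0.0834 and 0.0531 (edgeR). Fewer members were called by edgeR whenever 1 library was left out. Dropping untreated replicate 1, 2 or 3 left 32, 0 and 74 members called, against backgrounds of 0.236%, 0.0% and 1.34% of tested transcripts. Although none was called without untreated replicate 2, 99 members had an unadjusted p under 0.05 there. Dropping 2,4-D replicate 1, 2 or 3 left 15, 46 and 70, against backgrounds of 0.0776%, 0.349% and 0.944%.

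Other fits called between 67 and 100 members. DESeq2's Wald test called all 100, against a background of 6.56%, and limma voom called 87, against 1.67%. With DESeq2's size factors in edgeR it was 90, against 1.48%, with library totals 93, against 1.76%, and with upper-quartile scaling 95, against 1.64%. Without the filter on low counts edgeR called 95, against 1.16%, and with a filter of 1 CPM in 3 libraries 90, against 1.54%. With the replicate number as a block it called 67, against 0.847%.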

How the data were processed

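Raw fragment counts per annotated transcript were used as the authors deposited them, for 3 2,4-D and 3 untreated root libraries. Per the file headers, they were made with featureCounts on annotation version 2.1, from read pairs of 50 to 1000 bp, with exons summed per transcript and without the options for strand or for fragments that fit several transcripts. The exon length in bp, another deposited column of the authors' table, equalled the summed exons. Subread and featureCounts 1.4.3, bcl2fastq 1.8.4, FastQC 0.11.3 and limma 3.28.7 appear in the submitters' processing notes, with no model. The aligner is not given in the sources used here. The library kit was strand-specific, per the labels' protocols. The table held 42868 transcripts of 31694 loci.

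The members and lists were chosen with earlier results of these data known. CPM used library totals. Structure, position and neighbouring loci were read from the deposited exon coordinates, with loci taken as transcripts of the same identifier stem. Transcripts were named by rule (ranks 1 to 12, the 4 of highest level, of widest and of least 2,4-D spread, adjacent members, the 3 with most exons and the 3 longest, and those around the limit), and all others, such as members near each other with a locus between, were named after their values were seen. Level classes per kb were added after the data were seen. Product lists could not be applied without gene names. The comparison over all transcripts was made in R 4.3.3 with edgeR 4.0.16, TMM scaling, the default expression filter (minimum count 10), robust dispersions and the quasi-likelihood test. Alternatives used DESeq2 1.42.0 and limma 3.58.1. The same fit was also run on counts simulated from its own means and dispersions. It recovered 0%, 60%, 98% and 100% of simulated 2-, 4-, 8- and 16-fold changes, with 1 false call in a run of 19718 transcripts. Tables and intervals were made in Python 3.11.15 with pandas 2.3.3 and scipy 1.17.1.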

Additional observations from a re-analysis of the deposited data

How the results depend on the processing

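The exon number and exon length of the members kept their medians within the 95% order-statistic intervals (2 to 3 exons, 1131 to 1482 bp) under each of the 15 alternatives tried. Most of these lists held largely the same transcripts, so the nearness of their medians was partly given in advance. The share with 1 to 3 exons, 73.0%, left its interval in 1, with the ratio of group means (82.0%), which also shared only 51 members with the list and had a median 2,4-D coefficient of variation of 60.6%; the cause was not tested. With 1 library left out that share was 69.0% to 78.0%, the coefficient of variation 13.5% to 26.1% and the number of shared members 59 to 90, the fewest without untreated replicate 3. TMM-adjusted CPM kept 94 members, counts summed per locus 98, and higher CPM limits or 1 CPM added to both sides 76 to 78.

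In edgeR 296 transcripts were called higher, 90 of them members, and the other scalings, filters and limma voom called 87 to 95 members. DESeq2 called all 100 members and 1317 transcripts higher. With 1 library left out, edgeR called 0 to 74 members and 0 to 276 transcripts higher, the 0 without untreated replicate 2, where 1465 were higher at an unadjusted p under 0.05. Each such fit has fewer samples. With the replicate number as a block it called 67 members and 170 transcripts. Same-numbered libraries had deviations that correlated at -0.093, 0.350 and 0.093, so the numbers were not taken to pair them, and only 1 2,4-D library, replicate 2, was closest to the untreated library of its number. Counting depth limits the ratios of the 29 members with fewer than 30 untreated counts in all.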
